A study of Mus musculus with 32 samples.

Results

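The 10 mRNAs Myc, Ccnd1, Ccnd3, Mcl1, Bcl2l1, Vegfa, Hif1a, Birc5, Xiap and Mdm2 were taken as a group of growth and survival mRNAs. Such mRNAs are usually described as having structured 5′ leaders and as depending on the cap-binding factor eIF4E for translation. This description need not hold for each of the 10, and their dependence on eIF4E was not tested. The 10 mRNAs were chosen by name, and all were found by gene symbol among the 17757 genes of the count table. eIF4E binds the 5′ cap and, with the scaffold eIF4G and the RNA helicase eIF4A, forms the complex eIF4F that brings the small ribosomal subunit to an mRNA. The 4E-binding proteins keep eIF4E from eIF4G until they are phosphorylated. In tumours, more active eIF4E is known to favour mRNAs of this class over housekeeping mRNAs with short, open leaders.

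The mRNAs were measured by polysome profiling in 4T1 spheroids. 4T1 is a mouse mammary carcinoma line used as a model of triple-negative breast cancer. Each of 4 conditions had 4 independent spheroid pellets, and from each pellet the RNA carrying more than 3 ribosomes (polysomal) and the RNA carrying fewer (sub-polysomal) was sequenced, which gave 32 libraries. ASP shSCR and NoASP shSCR spheroids carried a scrambled shRNA, ASP shGRIN2D an shRNA against Grin2d, a subunit of NMDA receptors, and ASP shDHPS an shRNA against Dhps, the deoxyhypusine synthase that begins the hypusination of the translation factor eIF5A. All were kept for 5 days in lung-like medium, which held 700 µM added aspartate in the 3 ASP conditions and no added aspartate in NoASP shSCR. Every line, controls included, carried an integrated lentiviral shRNA vector and puromycin selection, was polyclonal, and each target gene was silenced in 1 line. Each knockdown was compared with the scramble line at the same aspartate.

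The libraries held 12870563 to 25639437 counts (median 18168765). Every one of the 10 mRNAs had at least 10 counts in every library, from 391 to 39281. Levels are given as CPM, counts scaled to a common library size with TMM factors over all 32 libraries. The ratio is the log2 of polysomal over sub-polysomal CPM in the same pellet. It is relative to the other mRNAs of that pellet, and a ratio of 0 does not mean equal amounts of RNA in the fractions.

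The cells carried epithelial markers in every library. The 7 epithelial markers summed to 1855 to 6763 CPM, led by Krt8 with a mean of 1361 CPM. Of 8 markers of immune, endothelial and fibroblast cells, 4 were in the table and summed to 13.3 to 51.0 CPM, led by Pdgfra with 15.5 CPM, while Pecam1 did not exceed 0.66 CPM and Ptprc 0.88 CPM in any library. Of the receptors that define triple-negative cells, Esr1 stood at 0.92 to 7.73 CPM and Erbb2 at a mean of 87.5 CPM, and Pgr was not among the genes of the table. Dhps was low where it was targeted, with 9.98, 10.8, 10.2 and 8.96 CPM in sub-polysomal RNA of ASP shDHPS against 42.9, 33.2, 43.3 and 41.3 CPM in ASP shSCR, a log2 difference (ASP shSCR minus ASP shDHPS) of 2.01 ± 0.17 (SE, edgeR quasi-likelihood test, adjusted p = 1.34e-08). Grin2d had few counts. Its sub-polysomal level was 2.59, 1.87, 2.62 and 2.89 CPM in ASP shGRIN2D and 4.29, 3.74, 6.91 and 3.32 CPM in ASP shSCR, a log2 difference (ASP shSCR minus ASP shGRIN2D) of 0.87 ± 0.30 (edgeR, adjusted p = 0.241). Its polysomal level was 1.94, 1.13, 1.06 and 2.39 CPM in ASP shGRIN2D and 3.44, 2.66, 4.03 and 3.44 CPM in ASP shSCR, a difference of 1.07 ± 0.33 (adjusted p = 0.337). In both fractions every ASP shGRIN2D library lay below every ASP shSCR library, a separation in either direction seen in 5.47% of all genes in sub-polysomal and 2.6% in polysomal RNA, but neither difference passed the test over all genes.

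One library stood apart before any comparison. On a scale where 0 is the average sub-polysomal and 1 the average polysomal library of the other conditions, over 11046 genes, ASP shSCR replicate 1 had its polysomal library at 0.37. The other polysomal libraries lay at 0.78 to 1.27 and the sub-polysomal libraries at −0.11 to 0.16. ASP shSCR enters every comparison of conditions, so values without this pellet are given. With 4 pellets a group, other pellets mattered as well. Of 90 differences between conditions (10 mRNAs, the ratio and both levels, 3 comparisons), 79 moved by more than 1.5 times when some pellet was left out, and 0 passed edgeR's test in any of these fits. ASP shSCR replicate 2 was often such a pellet, and the values that single pellets moved this far, or their range, are given beside the differences described singly. The 3 comparisons also share the ASP shSCR pellets, so they are not independent of each other.

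The sequences around the start codons are shown because this is where the scanning small subunit must stop, and because they differ among the 10 mRNAs. Each run holds the 9 bases before the start codon, the start codon in capitals and the base after it, from 1 well-supported GENCODE M21 transcript per gene.
Myc: gccacgacgATGc
Ccnd1: ggccgcgccATGg
Ccnd3: catcgcaggATGg
Hif1a: cgattcgccATGg
Vegfa: tccgaaaccATGa
Mcl1: cgtccgaccATGt
Bcl2l1: attataaaaATGt
Birc5: gacgccatcATGg
Xiap: ccagagaagATGa
Mdm2: tccaggccaATGt

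A favourable context has a purine at the third base before the start codon and a G right after it. Ccnd1, Ccnd3, Hif1a and Birc5 had both, 4 of 10, beside 45.1% of 13147 protein-coding genes. Myc, Mcl1, Bcl2l1, Vegfa and Xiap had the purine alone, and Mdm2 had neither. At least the purine was present in 86.0% of all these genes.

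The leaders were not uniform. Their annotated length ran from 69 bases in Mcl1 and 100 in Birc5, through 176 in Ccnd1, 278 in Ccnd3, 294 in Mdm2, 386 in Hif1a, 393 in Bcl2l1 and 459 in Vegfa, to 576 in Myc and 671 in Xiap, where the median of 13348 protein-coding genes was 173. GC content was 74.9% in Hif1a, 73.9% in Mcl1, 71.9% in Vegfa, 71.1% in Mdm2, 69.0% in Birc5 and 68.2% in Ccnd1, all above the median of 64.1%. It was 60.6% in Myc, 57.6% in Ccnd3, 52.7% in Bcl2l1 and 31.4% in Xiap, whose leader was among the least GC-rich of all genes (percentile 0.0845). The predicted folding energy of the first 100 leader bases was lowest in Birc5 at −48.2 kcal/mol and Vegfa at −46.6 kcal/mol, −43.8 in Mdm2, −42.9 in Bcl2l1, −37.9 to −36.8 in Ccnd1, Myc, Ccnd3 and Hif1a, and −10.4 kcal/mol in Xiap, beside a median of −35.5 over 9665 genes. The Xiap leader also held 21 upstream ATG triplets, Ccnd3 held 6 and Bcl2l1 4, whereas Myc, Ccnd1, Mcl1 and Hif1a held none. By these measures the usual description of the group as mRNAs with structured leaders did not hold for Xiap, whose leader was long and AT-rich with many upstream ATGs, and the Mcl1 leader was short. Nor did several others stand out. The folding energies of Ccnd1, Myc, Ccnd3 and Hif1a lay near the median (percentiles 41.4 to 45.5), and leader GC was below the median in Myc, Ccnd3 and Bcl2l1.

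In the genome, these genes lie apart (gene positions are in GRCm38, the build of the annotation that gave the leaders, while the authors mapped reads to GRCm39). Myc (ENSMUSG00000022346) lies at chr15:61985391-61990374 and Ccnd1 (ENSMUSG00000070348) at chr7:144929931-144939925. Ccnd3 (ENSMUSG00000034165) lies at chr17:47505051-47599691, on the same chromosome as Vegfa (ENSMUSG00000023951) at chr17:46016993-46032369. Hif1a (ENSMUSG00000021109) lies at chr12:73901375-73947530, Mcl1 (ENSMUSG00000038612) at chr3:95658788-95663176 and Bcl2l1 (ENSMUSG00000007659) at chr2:152780668-152831728. Birc5 (ENSMUSG00000017716) lies at chr11:117849251-117855743, Xiap (ENSMUSG00000025860) at chrX:42059679-42109656 and Mdm2 (ENSMUSG00000020184) at chr10:117688875-117710758.

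How polysomal each mRNA was, averaged over the 4 conditions, was asked first. Hif1a, Myc, Ccnd1 and Vegfa were higher in polysomal RNA, and Xiap, Ccnd3 and Mdm2 were lower. The mean log2 ratio was 1.09 ± 0.09 (SE) for Hif1a (adjusted p = 3.1e-11), 0.97 ± 0.11 for Myc (1.17e-08), 0.77 ± 0.09 for Ccnd1 (5.7e-08) and 0.25 ± 0.09 for Vegfa (0.0147), all by edgeR's quasi-likelihood test over 16 pellets. It was −1.17 ± 0.10 for Xiap (6.52e-11), −0.83 ± 0.17 for Ccnd3 (0.00013) and −0.24 ± 0.10 for Mdm2 (0.0281). Mcl1 at 0.21 ± 0.09 (0.0546), Birc5 at 0.01 ± 0.10 (0.942) and Bcl2l1 at −0.05 ± 0.08 (0.644) did not pass. That is 4 higher and 3 lower of 10, beside 31.5% of all genes called higher, 31.1% called lower and 62.6% called in either direction. These shares include genes with few counts, unlike the 10 mRNAs. With genes under 10 counts in any library dropped, 9127 of 11046 were called, 5097 higher and 4030 lower, and Mcl1 was called as well. The median ratio of the 10 mRNAs was 0.11, that of all genes −0.06 and that of the genes left by this filter 0.14. The Vegfa, Mdm2 and Mcl1 ratios lay close to the threshold. The Vegfa call was lost with DESeq2's size factors in edgeR (0.18, adjusted p = 0.0792) and by DESeq2 itself (0.18, adjusted p = 0.06). The Mdm2 call was lost with TMM within each fraction (−0.10, edgeR, adjusted p = 0.38). It was also lost on leaving out ASP shSCR replicate 3, NoASP shSCR replicate 1 or 4, ASP shGRIN2D replicate 4 or ASP shDHPS replicate 1, with values of −0.23 to −0.19 (edgeR, adjusted p = 0.0517 to 0.0746). Mcl1 was called with TMM within each fraction (0.36, edgeR, adjusted p = 0.0023), and when genes under 10 counts in any library were dropped (0.21, edgeR, adjusted p = 0.0397). It was also called with no pellet term (0.23, edgeR, adjusted p = 0.0451) and with a replicate block across conditions (0.21, edgeR, adjusted p = 0.0263). The same held without ASP shSCR replicate 2 (0.27, edgeR, adjusted p = 0.00715), ASP shGRIN2D replicate 2 (0.23, adjusted p = 0.0417) or ASP shGRIN2D replicate 3 (0.23, adjusted p = 0.0428).

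The order of the mean pellet ratios was Hif1a, Myc, Ccnd1, Vegfa, Mcl1, Birc5, Bcl2l1, Mdm2, Ccnd3 and Xiap. As percentiles of all genes these ratios stood at 90.6 for Hif1a, 87.9 for Myc and 82.7 for Ccnd1, and at 19.9 for Ccnd3 and 11.6 for Xiap. Within pellets most neighbours in this order did not differ beyond their spread. Hif1a exceeded Myc in 9 of 16 pellets by 0.12 ± 0.62 (SD), and Vegfa exceeded Mcl1 in 8 of 16 by 0.04 ± 0.22. Ccnd1 exceeded Vegfa in 14 of 16 pellets by 0.52 ± 0.27, the clearest step in the order.

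**Figure D1:**
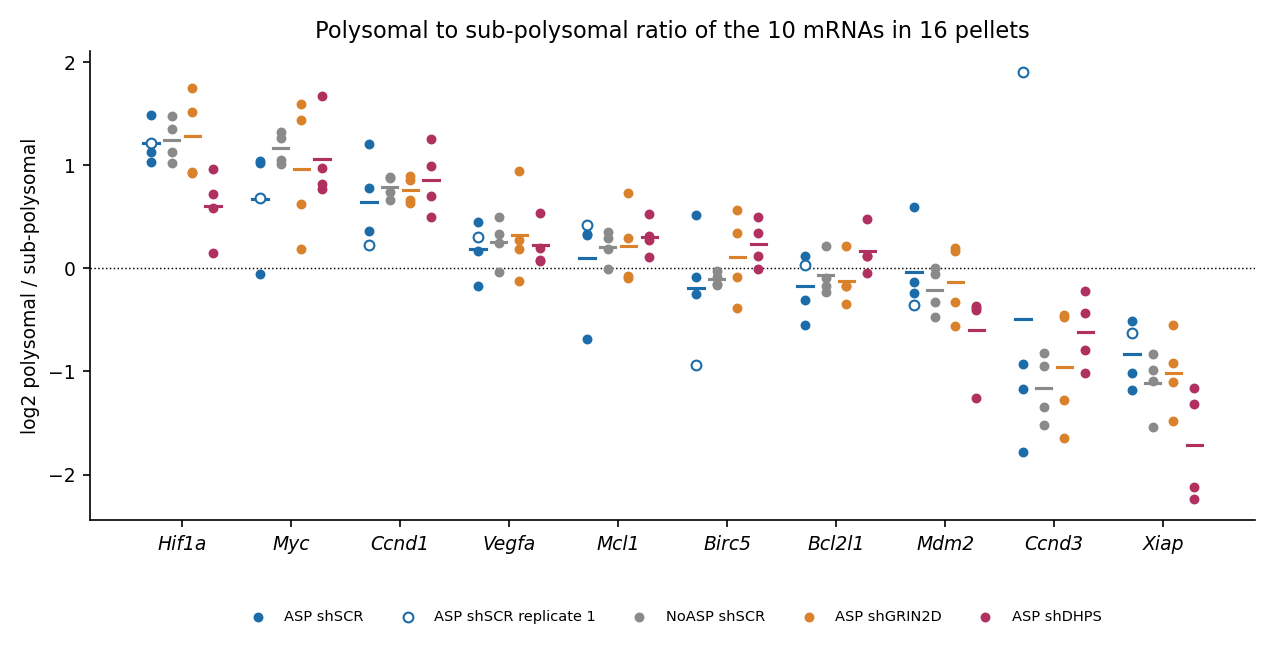
Log2 polysomal to sub-polysomal ratio (vertical axis) of each mRNA (horizontal axis, ordered by mean) in 16 pellets, with 1 point per pellet, short bars at the mean of 4 pellets and the open circle for ASP shSCR replicate 1. Hif1a and Ccnd1 lay above 0 in 16 of 16 pellets and Xiap below 0 in all 16, while the open circle of Ccnd3 lay at 1.91, far from the other pellets.

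Myc, the transcription factor that drives ribosome production and cell growth, had ratios of 0.68, −0.05, 1.02 and 1.05 in ASP shSCR, 1.32, 1.06, 1.02 and 1.27 in NoASP shSCR, 1.60, 0.19, 0.63 and 1.44 in ASP shGRIN2D and 1.68, 0.78, 0.82 and 0.98 in ASP shDHPS. The ratio was above 0 in 15 of 16 pellets, and the exception was ASP shSCR replicate 2. The groups overlapped in every comparison.

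Ccnd1 encodes cyclin D1, which with Cdk4 and Cdk6 opens the G1 phase. Its ratios were 0.22, 0.36, 1.21 and 0.78 in ASP shSCR, 0.89, 0.88, 0.74 and 0.67 in NoASP shSCR, 0.90, 0.66, 0.64 and 0.86 in ASP shGRIN2D and 1.26, 0.99, 0.70 and 0.50 in ASP shDHPS. All 16 were above 0, and the lowest was that of ASP shSCR replicate 1.

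Ccnd3, which encodes the related cyclin D3, went the other way. Its ratios were 1.91, −1.78, −1.17 and −0.92 in ASP shSCR, −1.34, −1.52, −0.95 and −0.82 in NoASP shSCR, −0.47, −1.27, −1.65 and −0.45 in ASP shGRIN2D and −0.22, −1.02, −0.43 and −0.79 in ASP shDHPS. In 15 of 16 pellets Ccnd3 was below 0 and in ASP shSCR replicate 1 it was at 1.91. Without that pellet the mean ratio was −1.01 (edgeR, adjusted p = 6.42e-10).

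Hif1a encodes the oxygen-regulated subunit of the hypoxia factor HIF1. Its ratios were 1.22, 1.49, 1.13 and 1.03 in ASP shSCR, 1.13, 1.02, 1.35 and 1.48 in NoASP shSCR, 1.75, 0.93, 1.52 and 0.94 in ASP shGRIN2D and 0.73, 0.97, 0.15 and 0.59 in ASP shDHPS. All were above 0, and the lowest were in ASP shDHPS. Vegfa, the angiogenic growth factor and a target of HIF1, had ratios of 0.30, −0.17, 0.45 and 0.17 in ASP shSCR, 0.50, 0.33, 0.25 and −0.03 in NoASP shSCR, 0.94, −0.13, 0.19 and 0.28 in ASP shGRIN2D and 0.54, 0.08, 0.20 and 0.09 in ASP shDHPS, with 13 of 16 above 0 and all groups overlapping.

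Xiap, an inhibitor of caspases, was the most sub-polysomal of the 10. Its ratios were −0.63, −0.51, −1.18 and −1.01 in ASP shSCR, −1.54, −1.09, −0.83 and −0.99 in NoASP shSCR, −1.11, −0.92, −0.55 and −1.48 in ASP shGRIN2D and −2.12, −1.32, −2.23 and −1.16 in ASP shDHPS, below 0 in each of the 16 pellets. The survival mRNAs Mcl1 and Bcl2l1, of the BCL2 family, and Birc5, which encodes the mitotic protein survivin, lay between. Over the 16 pellets Mcl1 ran from −0.68 to 0.73 (median 0.30), Birc5 from −0.94 to 0.57 (median −0.06) and Bcl2l1 from −0.55 to 0.48 (median −0.07).

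Mdm2, the ubiquitin ligase that removes p53, had ratios of −0.35, 0.59, −0.24 and −0.13 in ASP shSCR, −0.32, −0.05, 0.01 and −0.48 in NoASP shSCR, −0.32, 0.19, 0.16 and −0.56 in ASP shGRIN2D and −1.25, −0.40, −0.37 and −0.38 in ASP shDHPS. It was above 0 in 4 of 16 pellets. The pellets of ASP shDHPS were all below those of ASP shSCR, the lowest at −1.25.

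Set beside the leaders, the mean ratios of the 10 mRNAs had a Spearman correlation of 0.60 with leader GC content and −0.05 with leader length (10 mRNAs, a description). Over protein-coding genes the correlation with leader GC was −0.24 (13016 genes, not independent, and sharing libraries and base composition), the opposite sign. Among the 10, Xiap was lowest and Hif1a highest in both GC and ratio, and the correlation without them was not computed. In 4 equal bins of genes by leader GC, the most GC-rich bin, 71.3% and above, had a median ratio of −0.36, and the other bins had medians of 0.16 to 0.27. Hif1a, Mcl1 and Vegfa fell in that most GC-rich bin and yet had mean ratios of 1.09, 0.21 and 0.25. Mdm2, at 71.1% just below that bin, had a mean ratio of −0.24.

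**Figure D2:**
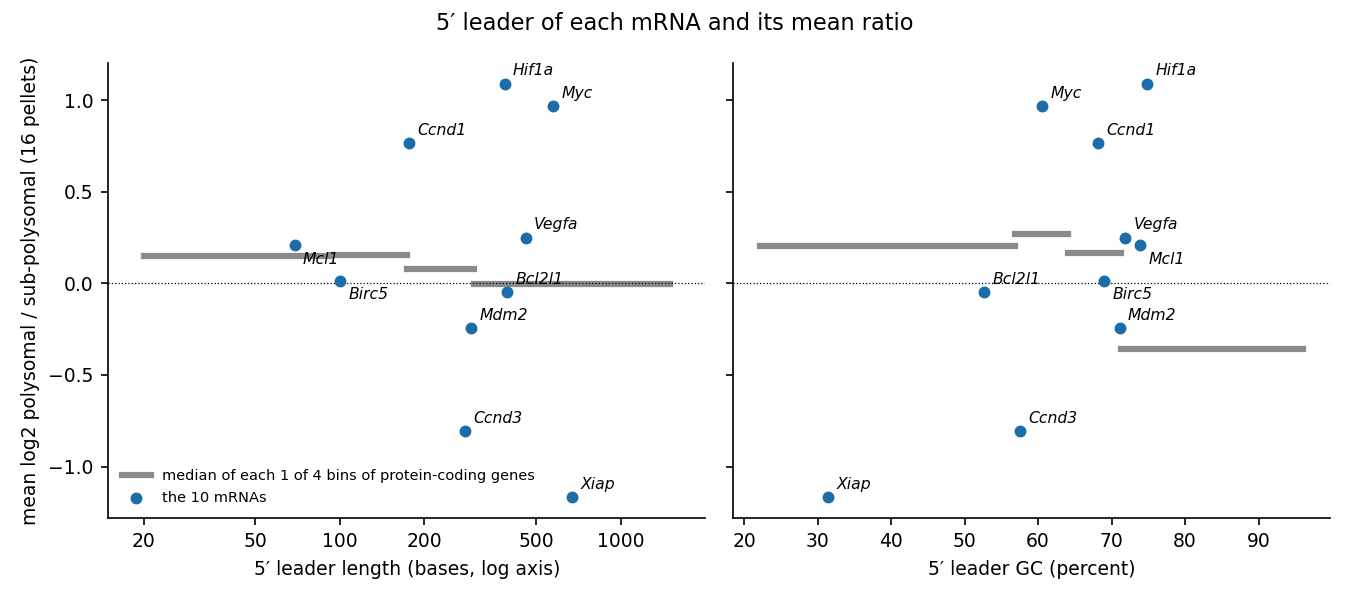
Mean log2 polysomal to sub-polysomal ratio over 16 pellets (vertical axis) against annotated leader length in bases (left, log axis) and leader GC percent (right), with the 10 mRNAs as points and grey bars at the median ratio of 4 equal bins of protein-coding genes (drawn from 20 to at most 1500 bases on the left). Xiap sat alone at 31.4% GC with the lowest ratio, and Hif1a had the highest GC and the highest ratio.

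The comparison with NoASP shSCR asked whether added aspartate moved these mRNAs between fractions. None of the 10 passed edgeR's test, 0 of 10 beside 0% of all genes, with 0 members and 343 genes at an unadjusted p under 0.05 and 0 genes called by DESeq2. The differences (ASP shSCR minus NoASP shSCR) ran from −0.49 ± 0.31 for Myc to 0.57 ± 0.49 for Ccnd3. The Myc value rested on ASP shSCR replicate 2 and was −0.25 without it. The Ccnd3 value rested on ASP shSCR replicate 1 and was −0.13 without it, and 1.03 without ASP shSCR replicate 2. The median of the 10 was −0.08 and that of all genes −0.02. With standard errors of 0.23 to 0.31 for the other 9 mRNAs, differences of that size were not detectable.

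The comparison with ASP shGRIN2D gave 0 of 10 by edgeR, again beside 0% of all genes, with 0 members and 571 genes at an unadjusted p under 0.05 and 0 genes called by DESeq2. Differences ran from −0.30 ± 0.28 for Birc5 to 0.37 ± 0.50 for Ccnd3, and single pellets moved both ends. Ccnd3 was −0.33 without ASP shSCR replicate 1 and 0.83, 0.61 and 0.14 without ASP shSCR replicate 2, ASP shSCR replicate 3 and ASP shGRIN2D replicate 3. Birc5 was −0.05 without ASP shSCR replicate 1, −0.53 without ASP shSCR replicate 2, and −0.47 and −0.15 without ASP shGRIN2D replicates 1 and 3. Myc differed by −0.29 ± 0.31, by −0.05 without ASP shSCR replicate 2, and by −0.07, −0.54 and −0.12 without ASP shGRIN2D replicates 1, 2 and 4. The median of the 10 was −0.09, beside −0.01 for all genes.

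Against ASP shDHPS the differences were largest in Xiap, Hif1a and Mdm2, but 0 of 10 passed, beside 0.208% of all genes. By edgeR, 3 members and 2416 genes had an unadjusted p under 0.05, and DESeq2 called 664 genes but none of the 10. Xiap was more polysomal in ASP shSCR by 0.87 ± 0.28 (edgeR, adjusted p = 0.157), and by 0.81 without ASP shSCR replicate 1. Hif1a differed by 0.61 ± 0.25 (adjusted p = 0.272) and Mdm2 by 0.56 ± 0.27 (adjusted p = 0.359). The Mdm2 difference was 0.36 without ASP shSCR replicate 2. It was 0.35 if ASP shDHPS replicate 1 was left out. Leaving out a pellet kept Xiap between 0.70 and 1.06 and Hif1a between 0.46 and 0.73. For Hif1a and Mdm2 the 4 pellets of ASP shSCR all lay above the 4 of ASP shDHPS, a separation seen in 6.86% of all genes in either direction. The 2 lowest ASP shDHPS pellets of Xiap, at −2.12 and −2.23, were the lowest of all 16, and the highest, at −1.16, overlapped ASP shSCR. Birc5 at −0.43 ± 0.28, Myc at −0.38 ± 0.31 and Bcl2l1 at −0.34 ± 0.23 had the opposite sign. Birc5 was −0.18 without ASP shSCR replicate 1 and −0.66 without ASP shSCR replicate 2. Myc was −0.14 without ASP shSCR replicate 2, or −0.18 if ASP shDHPS replicate 1 was left out, and Bcl2l1 was −0.22 without ASP shSCR replicate 4. Ccnd3 was 0.03 ± 0.49, and with 1 pellet left out it ran from −0.68 (without ASP shSCR replicate 1, edgeR, adjusted p = 0.315) to 0.48 (without ASP shSCR replicate 2). The median of the 10 was −0.12, beside 0.01 for all genes. Over 13348 protein-coding genes this difference had a Spearman correlation of 0.26 with transcript length (genes not independent). Its median was −0.21 in the shortest of 4 equal bins and 0.28 in the longest. Among the 10 the correlation was 0.68. Xiap and Hif1a were the longest at 6834 and 4724 bases and Birc5 the shortest at 947, but Ccnd1, at 3740 bases, had −0.22. The part of length was not tested.

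**Figure D3:**
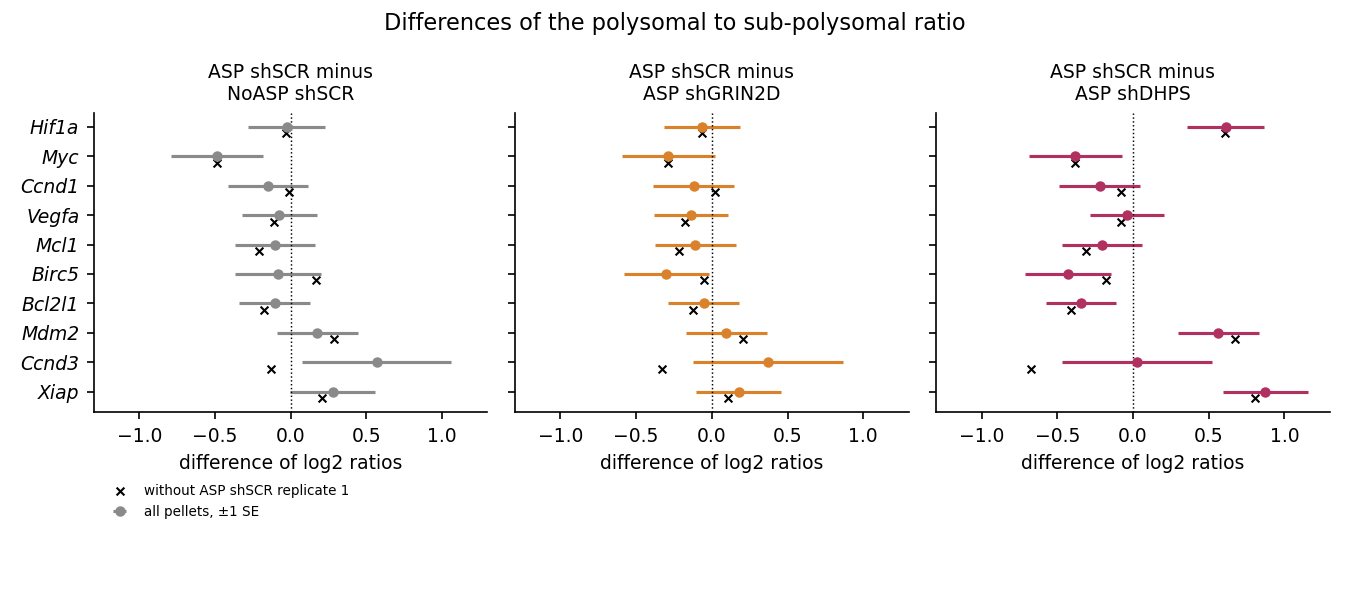
Difference of log2 polysomal to sub-polysomal ratio (horizontal axis, ASP shSCR minus the condition named above each panel) for the 10 mRNAs, with points and bars for the edgeR estimate ± 1 SE and crosses for the estimate without ASP shSCR replicate 1. The crosses moved most for Ccnd3, and Xiap had the largest difference against ASP shDHPS at 0.87.

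Levels in each fraction were compared next. In bulk RNA, fewer cells that hold an mRNA and less of it per cell cannot be told apart. Per kilobase of annotated transcript, Ccnd1 was the most abundant at 311 CPM per kb, followed by Birc5 at 217, Ccnd3 at 69.6, Myc at 39.7, Mcl1 at 38.9, Bcl2l1 at 35.1, Hif1a at 22.8, Mdm2 at 20.7, Vegfa at 18.0 and Xiap at 12.8 CPM per kb, means over both fractions. All 10 were above the median of 6.80 CPM per kb of protein-coding genes.

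In sub-polysomal RNA, 0 of 10 passed edgeR's test against NoASP shSCR (0% of all genes, 857 at an unadjusted p under 0.05, 1 called by DESeq2), 0 of 10 against ASP shGRIN2D (0.315% of all genes, 1944 unadjusted, 231 by DESeq2) and 0 of 10 against ASP shDHPS (1.39% of all genes, 2826 unadjusted, 652 by DESeq2). The number of genes called against ASP shDHPS, 247, fell to 86 without ASP shSCR replicate 2 and was 368 without ASP shSCR replicate 3. DESeq2 called none of the 10 in any of these. Differences ran from −0.24 to 0.15 against NoASP shSCR, from −0.29 to 0.30 against ASP shGRIN2D, and from −0.51 to 0.40 against ASP shDHPS. The 3 members at an unadjusted p under 0.05, all against ASP shDHPS, were Myc, Ccnd3 and Mdm2.

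Mdm2 stood at 64.9, 50.8, 65.0 and 59.5 CPM in sub-polysomal RNA of ASP shSCR and at 98.0, 77.8, 69.4 and 68.4 CPM in ASP shDHPS. Every ASP shSCR library lay below every ASP shDHPS library, a separation seen in 9.29% of all genes, and the log2 difference was −0.39 ± 0.15 (edgeR, adjusted p = 0.209). Its polysomal level differed by 0.20 ± 0.21, by 0.05 without ASP shSCR replicate 2, or 0.10 if ASP shDHPS replicate 1 was left out. Sub-polysomal Ccnd3 stood at 164, 246, 178 and 142 CPM in ASP shSCR and 143, 147, 144 and 120.2 CPM in ASP shDHPS, a difference of 0.40 ± 0.17 (edgeR, adjusted p = 0.261) that was 0.22 without ASP shSCR replicate 2. The ranges overlapped by a single library, ASP shSCR replicate 4.

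Myc had its lowest mean level in ASP shSCR in both fractions. Sub-polysomal Myc stood at 47.0, 42.7, 57.6 and 61.6 CPM in ASP shSCR, 48.0, 39.1, 60.5 and 81.4 in NoASP shSCR, 43.9, 54.3, 71.2 and 71.7 in ASP shGRIN2D and 54.2, 65.6, 87.9 and 89.1 in ASP shDHPS. Polysomal Myc stood at 75.6, 41.2, 117 and 127 CPM in ASP shSCR, 120.3, 81.4, 122 and 196 in NoASP shSCR, 133, 62.0, 110.2 and 194 in ASP shGRIN2D and 173, 112, 155 and 175 in ASP shDHPS. The groups overlapped throughout. Against ASP shDHPS the log2 difference was −0.51 ± 0.20 in sub-polysomal RNA (edgeR, adjusted p = 0.226) and −0.77 ± 0.35 in polysomal RNA (adjusted p = 0.288), beside the ratio difference of −0.38. With a replicate block across conditions both level differences were called (edgeR, adjusted p = 0.0327 and 0.031). The labels do not say what a replicate number stands for.

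In polysomal RNA, 0 of 10 passed against NoASP shSCR (0% of all genes by edgeR, 1210 unadjusted, 1 by DESeq2), 0 of 10 against ASP shGRIN2D (0.0394% of all genes, 1496 unadjusted, 69 by DESeq2) and 0 of 10 against ASP shDHPS (0.0394% of all genes, 2786 unadjusted, 554 by DESeq2). DESeq2 called none of the 10 here either. At an unadjusted p under 0.05 were Ccnd3 against NoASP shSCR, Ccnd3 and Vegfa against ASP shGRIN2D, and Ccnd3, Myc and Xiap against ASP shDHPS.

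Ccnd3 was decided by 1 library. Polysomal Ccnd3 stood at 613, 71.7, 78.9 and 74.8 CPM in ASP shSCR, 72.4, 61.9, 84.9 and 76.0 in NoASP shSCR, 116, 86.9, 75.6 and 113 in ASP shGRIN2D and 123, 72.6, 107 and 69.2 in ASP shDHPS. The first library of ASP shSCR, with 10867 counts, was far above the other 15, while its sub-polysomal partner lay within the range of its group. The difference was 1.51 ± 0.51 against NoASP shSCR and 0.03 without that library. It was 1.10 ± 0.51 against ASP shGRIN2D and −0.38 without it, and 1.17 ± 0.51 against ASP shDHPS and −0.31 without it.

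Polysomal Xiap stood at 49.4, 75.4, 65.1 and 57.3 CPM in ASP shSCR, 38.8, 67.9, 69.7 and 56.8 in NoASP shSCR, 46.3, 81.5, 77.3 and 37.0 in ASP shGRIN2D and 33.2, 52.8, 21.9 and 51.2 in ASP shDHPS. The difference against ASP shDHPS was 0.64 ± 0.29 (edgeR, adjusted p = 0.302), while sub-polysomal Xiap, at 76.6, 108, 147 and 116 CPM in ASP shSCR and 145, 132, 103 and 115 in ASP shDHPS, differed by −0.14 ± 0.18, a value that ran from −0.31 to 0.00010 with 1 pellet left out (the ends without ASP shSCR replicates 3 and 1). Polysomal Hif1a stood at 112, 118, 173 and 155 CPM in ASP shSCR and 117, 138, 86.3 and 141 CPM in ASP shDHPS, a difference of 0.21 ± 0.21, or 0.09 without ASP shSCR replicate 3, and 0.08 if ASP shDHPS replicate 3 was left out. Sub-polysomal Hif1a stood at 48.0, 41.9, 78.9 and 75.9 CPM in ASP shSCR and 71.0, 70.5, 77.9 and 93.9 CPM in ASP shDHPS, a difference of −0.36 ± 0.18, or −0.21 without ASP shSCR replicate 2. The Hif1a groups overlapped in each fraction. Polysomal Vegfa stood at 47.0, 46.0, 55.0 and 44.4 CPM in ASP shSCR and 94.9, 32.7, 69.6 and 75.3 CPM in ASP shGRIN2D, a difference of −0.50 ± 0.24 (edgeR, adjusted p = 0.583) with overlapping groups, and −0.30 without ASP shGRIN2D replicate 1.

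Like the rest of the 10, Ccnd1, Mcl1, Bcl2l1 and Birc5 passed the test for levels in neither fraction in any comparison of conditions. Polysomal Ccnd1 ran from 1092 to 1894 CPM over 16 libraries, with a difference of −0.19 from NoASP shSCR, −0.02 from ASP shGRIN2D and −0.11 from ASP shDHPS, and with 1 pellet left out these ran from −0.29 to −0.10, −0.12 to 0.13 and −0.20 to 0.01. Polysomal Mcl1 differed by −0.35 ± 0.25 against ASP shDHPS, by −0.53 without ASP shSCR replicate 1 and by −0.16 without ASP shSCR replicate 2. Against ASP shGRIN2D it differed by −0.27 ± 0.25, by −0.45 and −0.08 without those pellets, and by −0.12 and −0.42 without ASP shGRIN2D replicates 1 and 2. Polysomal Birc5 differed by −0.27 ± 0.24 against ASP shDHPS, by −0.12 and −0.48 without ASP shSCR replicates 1 and 2, and by −0.15 without ASP shDHPS replicate 2. Sub-polysomal Birc5 differed by 0.30 ± 0.16 against ASP shGRIN2D, and by 0.19 without ASP shGRIN2D replicate 3. Polysomal Bcl2l1 differed by −0.28 ± 0.19 against ASP shDHPS.

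**Figure D4:**
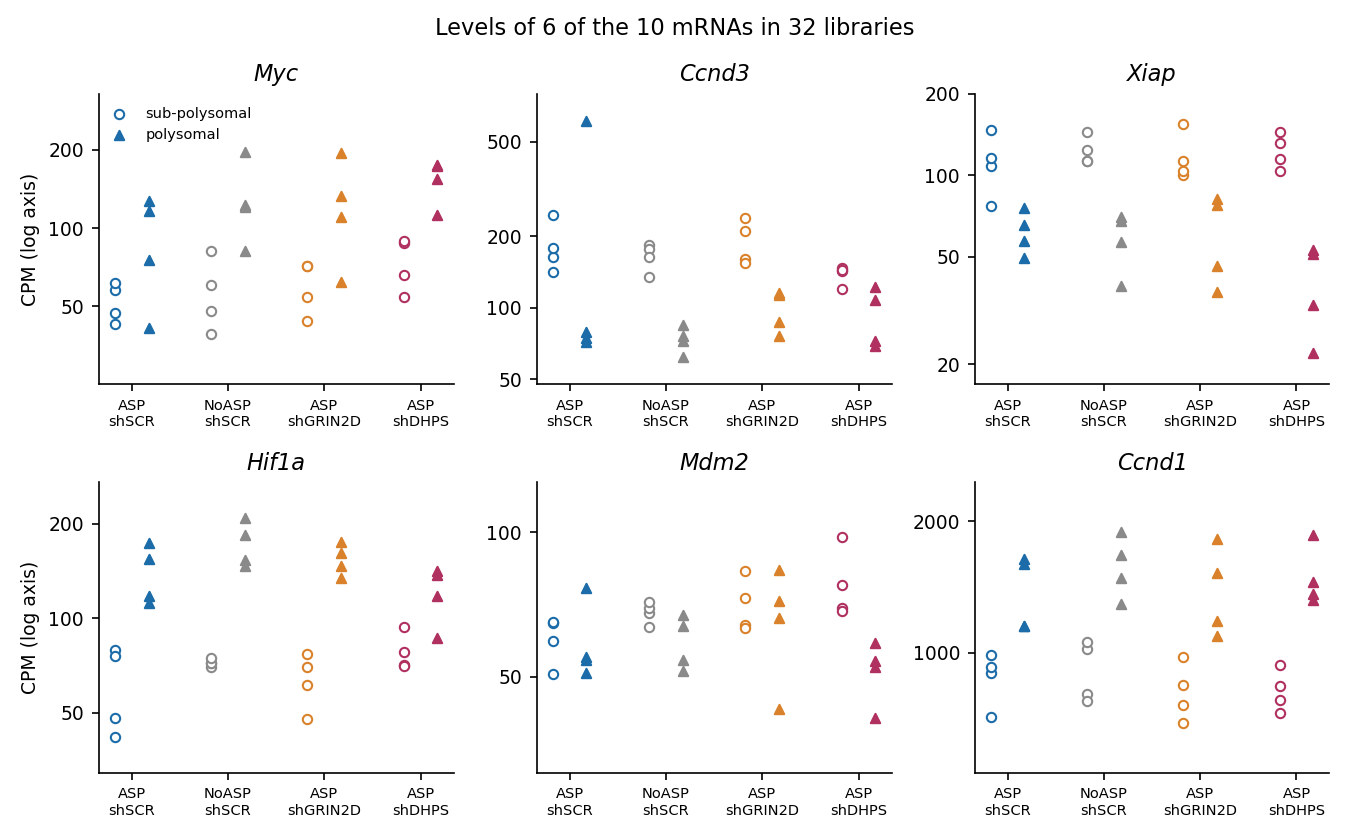
CPM (vertical log axes) of 6 of the 10 mRNAs in each of 32 libraries by condition (horizontal axis), with open circles for sub-polysomal and filled triangles for polysomal RNA. Polysomal Ccnd3 of ASP shSCR replicate 1 stood at 613 CPM, against 71.7 to 78.9 CPM in the other 3 pellets of its group.

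Within conditions the ratios of the 10 mRNAs did not vary independently. With each condition centred on its mean, over 16 pellets, the pairs with the highest Pearson correlation were Myc and Mcl1 at 0.83, Myc and Vegfa at 0.79, and Mcl1 and Vegfa at 0.76. The pairs with the lowest were Ccnd3 and Birc5 at −0.88, Myc and Mdm2 at −0.87, and Mcl1 and Birc5 at −0.85. Without ASP shSCR replicate 1 these were 0.87, 0.79, 0.76, −0.87, −0.91 and −0.90 in the same order. These pairs were picked by their values, and all share the libraries of a pellet and its scaling. Correlations of other gene pairs are not given, so a pattern particular to these mRNAs is not shown. The distance between the libraries of a pellet, on the scale from average sub-polysomal to average polysomal, moved with several of them. Over 16 pellets its correlation was 0.70 with the Ccnd1 ratio, 0.50 with Myc and −0.54 with Ccnd3, and between −0.29 and 0.29 with the other 7. Without ASP shSCR replicate 1, over 15 pellets, it was 0.82 with Myc, 0.71 with Mcl1, 0.65 with Vegfa, 0.60 with Ccnd1, 0.54 with Ccnd3, 0.47 with Hif1a, 0.44 with Bcl2l1, −0.27 with Xiap, −0.67 with Birc5 and −0.82 with Mdm2, so that Ccnd3 and Birc5 changed sign with that pellet. Its part in the correlations between the mRNAs was not tested.

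**Figure D5:**
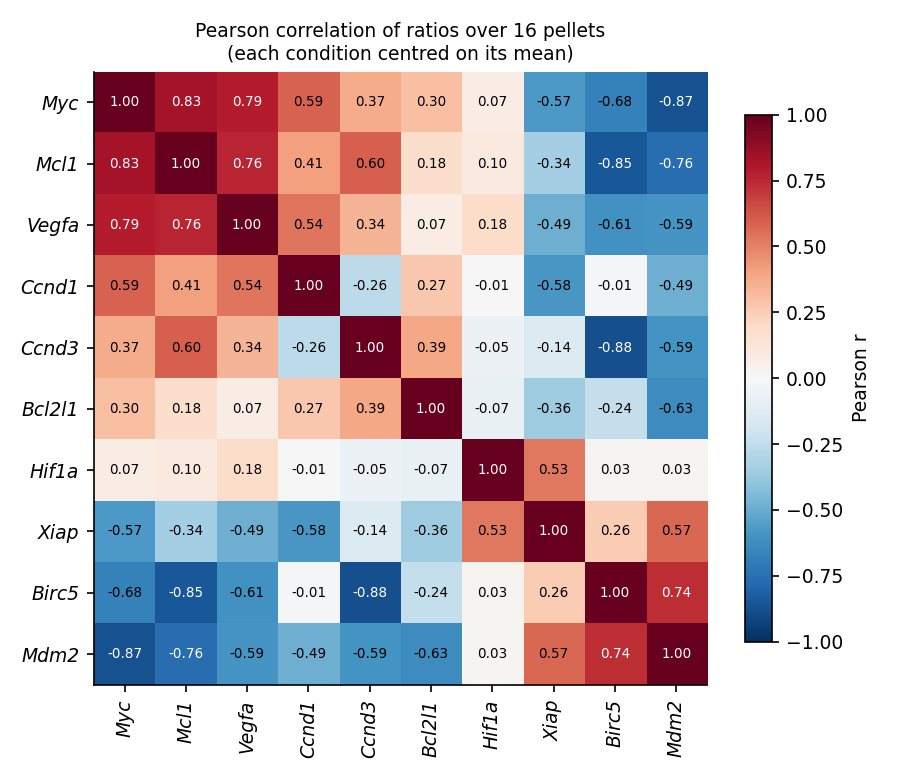
Pearson correlation (colour and printed value) of the log2 polysomal to sub-polysomal ratios of each pair of mRNAs over 16 pellets after centring each condition on its mean. Myc, Mcl1 and Vegfa formed a block of positive values (0.76 to 0.83), and Birc5 and Mdm2 had negative values with all 3.

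The mRNAs of the cap-binding machinery itself lay on both sides. Of 25 listed genes of eIF4F and its control, 24 were in the table, and over the 4 conditions 11 were higher and 8 lower in polysomal RNA, beside 31.5% and 31.1% of all genes. Eif4a1, the helicase, had a ratio of 1.67 ± 0.12 (edgeR, adjusted p = 1.61e-12), Eif4e 1.25 ± 0.09 (2.43e-12) and the scaffold Eif4g1 0.61 ± 0.10 (9.55e-06). The inhibitors Eif4ebp1 at −1.35 ± 0.11 (3.51e-11) and Eif4ebp2 at −2.34 ± 0.11 (1.51e-15) were lower, as were Mknk2, a kinase of eIF4E, at −2.23 ± 0.13 and Pabpc1, the poly(A)-binding protein, at −2.57 ± 0.18. Sub-polysomal Eif4e differed by −0.58 ± 0.16 between ASP shSCR and ASP shDHPS (edgeR, adjusted p = 0.0579). Eif4ebp1 differed by 0.72 ± 0.29 in polysomal RNA between ASP shSCR and NoASP shSCR (adjusted p = 0.562).

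Other mRNAs often called eIF4E sensitive were mixed as well. Of 18, 8 were higher in polysomal RNA, among them Rhoa at 1.38 ± 0.08 and the matrix protease Mmp9 at 1.27 ± 0.13, and 4 were lower, among them Odc1, the first enzyme of polyamine synthesis, at −1.79 ± 0.22 and Tgfb1 at −1.39 ± 0.12 (edgeR). The 12 called of 18 were near the 62.6% of all genes called in either direction, a share that includes genes with few counts. Their median ratio was 0.22, between the 0.11 of the 10 mRNAs and the 0.81 of 14 housekeeping mRNAs, of which 11 were higher and 2 lower, beside 31.5% and 31.1% of all genes. Actb stood at 1.65 ± 0.11 and Ldha at 1.55 ± 0.10, while Eef2 stood at −1.71 ± 0.14. Between conditions, sub-polysomal Mmp9 was higher in ASP shSCR than in ASP shGRIN2D by 1.24 ± 0.23 (edgeR, adjusted p = 0.00657) and than in ASP shDHPS by 1.41 ± 0.23 (0.00099), and Ccne1, cyclin E1, than in ASP shGRIN2D by 0.87 ± 0.18 (0.0194).

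The partners of the 10 mRNAs were placed as follows, not counting the 10 themselves. Each count stands beside 31.5% of all genes higher and 31.1% lower in polysomal RNA, shares that include genes with few counts. Several of these short lists were near those shares. In the MYC network 2 of 12 were higher in polysomal RNA and 6 lower, with Mxd4, a repressor that competes for the Myc partner Max, at −2.49 ± 0.12. On the cyclin D axis 3 of 10 were higher and 4 lower, with the inhibitors Cdkn1a at 1.19 ± 0.10 and Cdkn1b at 0.88 ± 0.08 and the transcription factor E2f1 at −1.84 ± 0.14. In the BCL2 family 7 of 12 were lower and the other 5 did not pass, with the pro-apoptotic Bok at −1.99 ± 0.13 and Bax at −1.17 ± 0.11 and the anti-apoptotic Bcl2l2 at −1.75 ± 0.10. Among IAP proteins, their antagonists and caspases 10 of 12 were higher and 1 lower, with the initiator caspase Casp8 at 1.25 ± 0.11, so that Xiap and Casp8 stood on opposite sides. In the HIF1 and VEGF pathway 6 of 13 were higher and 6 lower, with Egln1, a prolyl hydroxylase that marks HIF1 for degradation, at −2.13 ± 0.15 beside Hif1a at 1.09. On the p53 and MDM2 axis 4 of 11 were higher and 5 lower, with Mdm4 at −1.37 ± 0.10 and Trp53 at −1.09 ± 0.10. All of these are edgeR values relative to the average mRNA. Between conditions, Ccng1 of the p53 axis was the only gene of these 6 lists called by edgeR, higher in sub-polysomal RNA of ASP shSCR than of ASP shGRIN2D by 0.94 ± 0.16 (adjusted p = 0.00232).

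Some markers of the cells themselves differed in sub-polysomal RNA. In sub-polysomal RNA the epithelial keratins Krt19, Krt18, Krt14 and Krt8 were higher in ASP shSCR than in ASP shDHPS, by 1.04 ± 0.18, 0.98 ± 0.24, 0.78 ± 0.15 and 0.73 ± 0.19 (edgeR, adjusted p = 0.00216, 0.0322, 0.0049 and 0.049), 4 of 7 epithelial markers, beside 1.39% of all genes called in either direction. The other epithelial markers did not pass, with Epcam at 0.54 ± 0.19 and Cldn7 at 0.31 ± 0.21, and Cdh1, E-cadherin, had the opposite sign at −0.29 ± 0.18 (edgeR, adjusted p = 0.143, 0.471 and 0.445). In polysomal RNA of the same comparison 0 of 7 were called and their median difference was 0.15. Against ASP shGRIN2D 0 of 7 were called in either fraction, but the sub-polysomal median was 0.59, with Krt18 at 1.00 ± 0.24 and Krt8 at 0.82 ± 0.19 (edgeR, adjusted p = 0.0636 and 0.0589). Of the markers of other cell types, Cd68, a myeloid marker, was at 8.85 to 12.8 CPM in polysomal RNA of ASP shSCR and 18.9 to 26.4 CPM in ASP shDHPS, with no overlap and a log2 difference of −0.99 ± 0.22 that did not pass (edgeR, adjusted p = 0.0923), beside 5.25% of all genes separate there. In sub-polysomal RNA of that comparison Cd68 differed by −0.22 ± 0.23. Polysomal Cd68 of ASP shGRIN2D, at 13.9 to 20.8 CPM, also lay above every ASP shSCR library and was not called. A separation in either direction was seen there in 2.6% of all genes. The other myeloid or immune marker in the table, Ptprc, did not exceed 0.88 CPM. The part of these markers in the differences of the 10 mRNAs was not tested.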

How the data were processed

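The unit was counts. Per the labels and the methods, the authors trimmed reads with Trim Galore (0.6.6), mapped them to GRCm39 with STAR (2.6.1), quantified genes with Salmon (1.4.0), rounded the estimates to whole counts, removed genes with few counts and deposited the count table without normalization. Libraries were stranded. Deposited tables of the authors' own differences in translation and gene set scores were not used.

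The counts of 17757 genes were tested in R 4.3.3 with edgeR 4.0.16 (TMM factors over 32 libraries, quasi-likelihood F-test, two-sided, Benjamini-Hochberg over all genes, threshold 0.05). For ratios, the model held a term for each of 16 pellets and a polysomal term per condition, since the fractions of a pellet were matched. Levels were tested within the 16 libraries of a fraction. Pellet ratios used a prior count of 2. The scripts were tested on simulated data. A gene that the naming rule picked is not reported here. Alternatives were DESeq2 1.42.0, its size factors in edgeR, TMM within each fraction, at least 10 counts in every library, other models and leaving out each pellet. Pellets are separate pellets of spheroids, and nothing in the labels says that they came from separate cultures.

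Members and lists were chosen with earlier results of these data known. The text names all 10 members, Dhps, Grin2d, Eif4e, Eif4g1, Eif4a1, Eif4ebp1 and, of each list and comparison, up to 4 called genes with the largest difference and a mean of at least 50 counts. Of each such 4, some are left out for space. Cell type markers and receptors outside this rule (Pecam1, Ptprc, Pdgfra, Cd68, Esr1, Erbb2, Epcam, Cldn7, Cdh1, and Krt8 and Krt18 where not called) were named after their values were seen. Leaders came from GENCODE M21 (GRCm38), in which 13348 of 13409 protein-coding genes of the table (99.5%) had a complete coding transcript. Of each gene, a transcript with an ATG start and a leader of at least 20 bases was preferred, then the best support level and APPRIS rank. Folding used ViennaRNA 2.7.2.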

Additional observations from a re-analysis of the deposited data

Results flagged for a closer look

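Of 120 groups of 4 samples (ratio and both levels of the 10 mRNAs in 4 conditions), 6 held a sample far from the other 3 by Dixon's test at 95%, and chance gives about 6 of 120. Polysomal Ccnd3 in ASP shSCR replicate 1 stood at 613 CPM, against 71.7 to 78.9 CPM in the other replicates, the largest departure and in the library that stood apart. Sub-polysomal Ccnd3 in ASP shDHPS replicate 4 stood at 120.2 CPM, against 143 to 147 CPM. The Mcl1 ratio of ASP shSCR replicate 2 was −0.68, against 0.33 to 0.42. The same pellet gave sub-polysomal Vegfa at 51.8 CPM, against 38.1 to 40.2 CPM, and polysomal Mdm2 at 76.6 CPM, against 50.9 to 55.0 CPM. The Mdm2 ratio of ASP shDHPS replicate 1 was −1.25, against −0.40 to −0.37, and without that pellet the mean Mdm2 ratio over the 4 conditions was −0.19 (edgeR, adjusted p = 0.0746). The causes were not tested.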

How the results depend on the processing

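The count of members called in each comparison held or stayed within 1.5 times under the alternatives, except with a replicate block across conditions, under which 1 of 10 was called against ASP shDHPS in sub-polysomal RNA and 1 of 10 in polysomal RNA. Both calls were Myc, at −0.49 (edgeR, adjusted p = 0.0327) and −0.88 (0.031), and under the other alternatives its adjusted p in these comparisons ranged up to 0.498 and 0.502. Under this block the genes called against ASP shDHPS rose from 247 to 753 in sub-polysomal RNA, from 7 to 267 in polysomal RNA and from 37 to 231 for the ratio, and against ASP shGRIN2D from 56 to 194 and from 7 to 25 in the 2 fractions. Myc was lower in ASP shSCR than in the same-numbered ASP shDHPS pellet for 4 of 4 numbers in both fractions. The labels do not say what a number stands for, and the block was kept as an alternative. The correlation of centred ratios had a median of 0.17 between same-numbered pellets of different conditions (24 pairs, −0.27 to 0.67). Between others it was −0.05 (72 pairs). In ratios, then, same-numbered pellets did not all deviate together. Effects shared by both fractions of a pellet cancel in a ratio, so this cannot tell whether the numbers pair the levels. Polysomal Myc was lowest in replicate 2 and highest in replicate 4 in each condition. Sub-polysomal Myc was highest in replicate 4 in each condition. With TMM within each fraction, chosen for the levels after seeing the data, the median ratio of all genes moved from −0.06 to 0.08, and the calls from 5600 higher and 5514 lower to 6383 and 4782. The mean Bcl2l1 ratio then was 0.10. Keeping only genes with 10 counts or more in all libraries gave a median of 0.14, over fewer genes, and 145 calls for the ratio against ASP shDHPS, where 37 genes were called. TMM within each fraction gave 184 there and 30 in polysomal RNA. DESeq2's size factors in edgeR, no pellet term and the compared conditions alone each gave 0 there. In polysomal RNA, where 7 genes were called against either knockdown, DESeq2's size factors gave 2 and the compared conditions alone 1 against ASP shDHPS, keeping genes with 10 counts or more gave 11, and against ASP shGRIN2D TMM within each fraction gave 3 and the compared conditions alone 0.

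Leaving out 1 pellet in turn moved the Ccnd3 ratio difference to between −0.13 and 1.03 against NoASP shSCR, −0.33 and 0.83 against ASP shGRIN2D, and −0.68 and 0.48 against ASP shDHPS. The polysomal Ccnd3 difference ran from −0.38 to 1.39 against ASP shGRIN2D and from −0.31 to 1.46 against ASP shDHPS, and the sub-polysomal differences against NoASP shSCR from −0.033 to 0.25 for Ccnd3 and from −0.28 to 0.085 for Myc. The count of all genes called against ASP shDHPS also moved, from 0 (without ASP shSCR replicate 4, among others) to 88 (without ASP shSCR replicate 1) for the ratio, from 86 (without ASP shSCR replicate 2) to 368 (without ASP shSCR replicate 3) in sub-polysomal RNA and from 0 (without ASP shSCR replicate 2, among others) to 171 (without ASP shSCR replicate 1) in polysomal RNA. Against ASP shGRIN2D it ran from 23 (without ASP shGRIN2D replicate 4) to 59 and from 0 to 64 (without ASP shSCR replicate 3) in the 2 fractions. The shares of all genes called are therefore loose backgrounds. Another 87 of 1550 values changed sign by less than 1 SE and without a call.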
